A study of Mus musculus with 2 samples.

Results

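The S100 genes described here are S100a1, S100a4, S100a6, S100a7a, S100a10, S100a11, S100a13, S100a16 and S100b, 9 of the 44792 rows of the deposited count table, taken by gene symbol. They were chosen by their counts in these libraries and their ratios of the compressed to the control library, so both are given as a description. The study measured RNA by sequencing in OCCM-30 cells, an immortalized mouse cementoblast-like line labelled wild type, with 1 library of cells under compressive force and 1 library of control cells. The culture medium of both groups was Dulbecco's modified Eagle's with fetal bovine serum and antibiotics. How large the force was and how long it lasted are not given by the labels, and 1 cell line limits both groups as a model of cementum. With 1 library per group no difference has a replicate check, and each interval covers counting error only.

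S100 proteins are small calcium-binding proteins that carry a pair of EF-hands, the helix-loop-helix folds that hold calcium, and most act as dimers. On binding calcium many of them expose a surface that takes up target proteins such as annexins, myosins and other cytoskeletal partners. Some are also secreted and signal through cell surface receptors, among them the receptor for advanced glycation end products (Ager) and Toll-like receptor 4 (Tlr4). In mineralized tissue S100a4 is known as a negative regulator of mineral formation in cultured osteoblasts.

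The libraries held 24296292 counts under force and 25049919 counts in control, and CPM values (counts scaled to a common library size) were taken on sizes from the trimmed mean of M-values (TMM). Of 9 cementoblast and osteoblast markers, 7 lay above 1 CPM, with counting intervals of the force to control ratio above 1 for 4 and below 1 for 1. Over all genes above 1 CPM in either library, 26.3% had intervals above 1 and 28.6% below 1. Col1a1 was among the 4 at a ratio of 1.03, from 188419 counts under force and 188837 in control. Phospho1 was the one past 2-fold, with 657 counts under force and 313 in control, while Runx2 had 4416 under force and 5788 in control. Of all genes, 3.06% had a ratio of at least 2 with an interval above 1. Bone sialoprotein (Ibsp) was at 0 in both libraries. Markers of cells that are rich in certain S100 proteins were mostly low, apart from Sox9 of the chondrocyte list. The 8 keratinocyte and epithelial markers summed to 1.94 CPM under force and 1.84 CPM in control, with Krt5, Krt18, Epcam, Lor and Ivl at 0 in both. The 7 neutrophil and macrophage markers with a row summed to 7.99 CPM under force and 7.58 CPM in control, most of it Cd68, with Ptprc, Elane and Mpo at 0 in both. Of the Schwann cell, glial and melanocyte markers, Sox10 and Mlana were at 0 in both libraries. The 5 chondrocyte markers summed to 23.3 CPM under force and 28.3 CPM in control, most of it Sox9 (18.2 CPM under force, 22.6 CPM in control). The part of such cells in the S100 values was not tested.

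Of the 9 S100 genes, 8 lay above a minimum of 1 CPM in either library, and S100a7a stood apart from the other 7, which were all within 2-fold. S100a7a was called lower, where a call needs a 2-fold difference in either direction (2 or more, or 0.5 or less) and a 95% counting interval that excludes 1. No S100 gene was called higher. Over all 14001 genes above the minimum, 3.06% were called higher and 0.929% lower. Leaving the fold limit aside, 3 S100 genes (S100a1, S100a11 and S100a16) had intervals above 1 and 4 (S100a4, S100a6, S100a7a and S100a10) had intervals below 1, while the interval of S100a13 held 1. These counts stand beside 26.3% of all genes with intervals above 1 and 28.6% with intervals below 1. Deep counts make narrow intervals, and at a mean of at least 100 CPM 33.1% of genes lay above 1 and 44.1% below, so intervals that exclude 1 are common at the depth of the abundant S100 genes. The median log2 ratio of the 8 was 0.04, against -0.01 over all genes above the minimum.

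**Figure D1:**
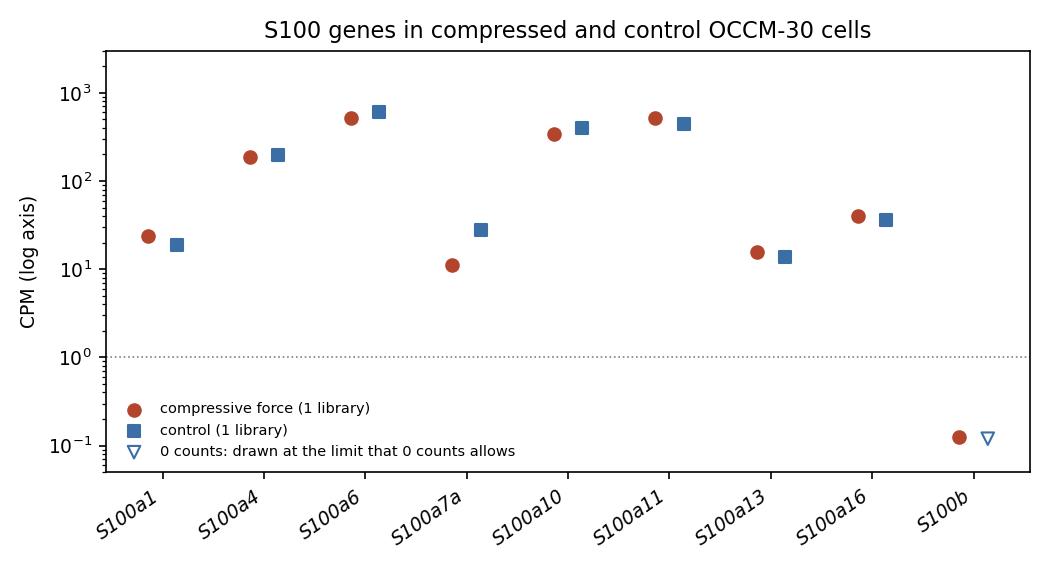
CPM (log axis) of the 9 S100 genes in the compressed library (circles) and the control library (squares), 1 library each, with the dotted line at the minimum of 1 CPM. S100a7a shows the widest gap of the genes above that line, at 11.3 CPM under force and 28.1 CPM in control; values serve comparison within a gene, since CPM is not scaled to transcript length.

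S100a7a, a mouse relative of human psoriasin that is best known from inflamed skin, had 274 counts under force against 703 in control. On the CPM scale this was 11.3 under force and 28.1 in control, and the gene was 2.48 times lower (95% counting interval 2.16 to 2.87). Here and below, fewer cells that express a gene and less of its RNA per cell cannot be told apart. Its log2 ratio of -1.31 moved between -1.32 and -1.30 over TMM, total counts, DESeq2 size factors, upper-quartile factors and a loess fit on abundance. Of 2286 genes whose mean CPM lay within 1.5-fold of its own, 0 had a lower ratio. The same held for all 6823 genes with at least its control CPM, of which S100a7a and 2 others were called lower. That set is cut on the control library, where S100a7a is higher, and S100a7a lies at its lower edge of abundance. The gene was also chosen with its ratio known, so both ranks are a description. The gene lies on chromosome 3 at 90651925 to 90658130 (GRCm38). S100a7l2, a related RefSeq gene further along the chromosome, was not analysed here. How reads that align to both were counted is not given.

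By nearness of log2 ratio over the 2 libraries, the genes most like S100a7a within the same 1.5-fold range of mean CPM were Panx3, Ptchd4, Pid1, Ces1g and Coq10b. Panx3, which forms channels in bone and cartilage cells, was nearest with a log2 ratio of -1.18, from 225 counts under force against 526 in control. Ptchd4, a patched-domain gene, followed at -1.12. Pid1, Ces1g and Coq10b had log2 ratios of -0.97, -0.96 and -0.96, with ratios just above the limit of 0.5. These 5 are among the 2286 genes of which 0 had a lower ratio, so that none of them reached the ratio of S100a7a follows from that rank.

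**Figure D2:**
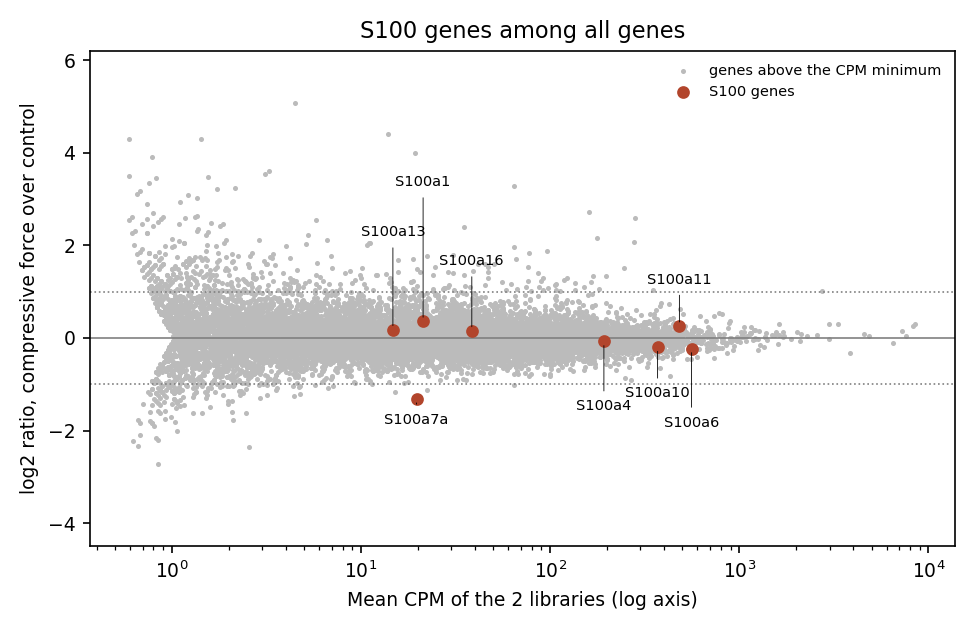
The log2 ratio of compressive force over control against the mean CPM of the 2 libraries (log axis), with each of the 14001 genes above the CPM minimum in grey, the 8 S100 genes above it in red and dotted lines at 2-fold. S100a7a lies below the other genes of its abundance, while the other 7 S100 genes lie inside it.

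S100a6, S100a10 and S100a11 had the most counts of the 9, and they did not share a direction. S100a6, also called calcyclin, binds calcyclin-binding protein and annexins and is abundant in dividing fibroblasts. It had 12510 counts (515 CPM) under force against 15129 counts (604 CPM) in control, a ratio of 0.853 (0.833 to 0.874). A lower ratio was found in 33 of 276 genes within 1.5-fold of its mean CPM (12.0%).

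S100a10, the annexin A2 partner that has lost calcium binding and helps hold plasminogen at the cell surface, had a similar ratio. Its counts were 8362 (344 CPM) under force and 9910 (395 CPM) in control, a ratio of 0.871 (0.846 to 0.897). Of 622 genes of like abundance 111 had a lower ratio (17.8%).

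S100a11, which binds annexin A1 and takes part in membrane repair, ran the other way. It had 12740 counts (525 CPM) under force against 11024 counts (440 CPM) in control, a ratio of 1.19 (1.16 to 1.22). In its range of abundance 32 of 399 genes had a higher ratio (8.02%).

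The contrast between these genes does not depend on how the libraries were scaled, because it can be read within each library. This measure was added after the values were seen, so it restates the contrast free of scaling and is no further check of it. Its intervals cover counting error only and were not widened for the spread between cultures. There were 1.02 counts of S100a11 per count of S100a6 under force and 0.729 in control, so this within-library ratio was 1.398 times as high under force (1.35 to 1.45). Against S100a10, S100a11 stood at 1.52 under force and 1.11 in control, a quotient of 1.37 (1.32 to 1.42). S100a6 and S100a10 kept nearly the same proportion, at 1.496 under force and 1.53 in control, and the interval of the quotient, 0.944 to 1.02, held 1. S100a7a per count of S100a11 was 0.0215 under force and 0.0638 in control, a quotient of 0.337 (0.293 to 0.389).

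S100a4, also called metastasin, binds nonmuscle myosin IIA and is a common fibroblast marker. It had 4548 counts (187 CPM) under force against 4949 counts (197 CPM) in control, a ratio of 0.948 (0.911 to 0.987). This was the smallest difference among the 8 genes, 41.2% of 1394 genes of like abundance had a lower ratio, and the interval held 1 with the loess fit and at a confidence level of 99%.

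**Figure D3:**
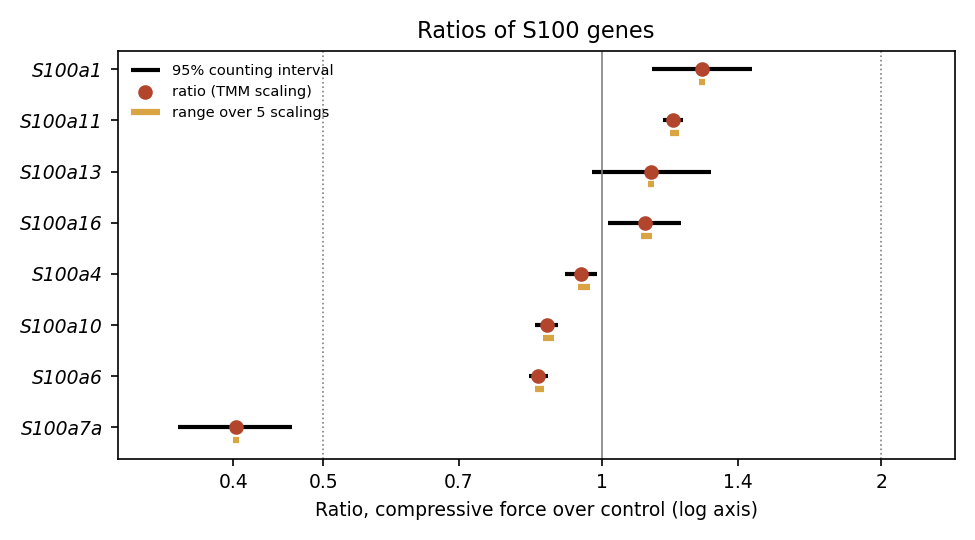
Ratio of compressive force over control (log axis) for the 8 S100 genes above the CPM minimum, with points for TMM scaling, black bars for the 95% counting interval and gold bars for the range over 5 scalings; dotted lines mark 2-fold. S100a7a at 0.403 is the one gene past the dotted line, and S100a1 has the highest ratio at 1.28.

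S100a1, known for calcium handling in heart and skeletal muscle, had the highest ratio of the 8. It had 581 counts (23.9 CPM) under force against 468 counts (18.7 CPM) in control, a ratio of 1.28 (1.13 to 1.45), and 13.4% of 2358 genes of like abundance had a higher ratio. S100a13, which helps release fibroblast growth factor 1 from cells, had 380 counts (15.6 CPM) under force and 347 counts (13.8 CPM) in control. Its ratio was 1.13 with a counting interval from 0.974 to 1.31, so a difference was not detectable at this depth. S100a16, a broadly expressed member, had 985 counts (40.6 CPM) under force and 915 counts (36.5 CPM) in control, a ratio of 1.11 (1.01 to 1.22), and its interval held 1 at the 99% level. Higher ratios were found for 25.7% of 2703 genes of like abundance.

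S100a1 and S100a13 are transcribed away from each other in RefSeq, S100a1 from the minus strand and S100a13 from the plus strand, and their spans overlap by 98 bases. Since the strand setting of the counting is not given, reads in the overlap could count for either gene. Between the start of S100a1 and the promoter-table start of S100a13 lie 104 bases, chr3:90514331-90514434 on the plus strand, shown because they lie before both of these starts. The S100a13 span of the gene table begins 202 bases earlier than its promoter-table start, so the stretch lies inside that span. None of the 4 motifs searched below lies in this stretch.
S100a1 to S100a13: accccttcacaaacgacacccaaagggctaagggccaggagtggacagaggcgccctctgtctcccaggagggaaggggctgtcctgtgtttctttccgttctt
The ratio of S100a1 to S100a13 counts was 1.53 under force and 1.35 in control, and the interval of the quotient, 0.938 to 1.37, held 1.

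S100b, the S100 protein of Schwann cells, glia and chondrocytes, was scarcely detected. It had 3 counts under force and 0 in control, where 0 counts allow up to 0.12 CPM, so no fold is given. It lies on chromosome 10 at 76253836 to 76261319, apart from the other 8.

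Promoter sequences from RefSeq (GRCm38.p6) were matched by symbol for 8 of the 9 genes, with 2 start sites for S100a16. S100a10 had no entry. The 250 bases before each start were searched on both strands for ACGTG and GCGTG (cores of the hypoxia response element), TGANTCA (the AP-1 site) and GGAATG (a TEAD site core). Over all 32851 promoter windows of this length, 16.6% held ACGTG, 28.2% GCGTG, 6.75% TGANTCA and 12.6% GGAATG. The windows of the gene with the lowest ratio and of the abundant pair that ran in opposite directions are printed, with matches in capitals: S100a7a (chr3:90654052-90654301), S100a11 (chr3:93520246-93520495) and S100a6 (chr3:90612644-90612893), all on the plus strand. The S100a7a start of the promoter table lies 2377 bases inside the gene span given above, so its window is within the span, while the S100a11 and S100a6 windows end where their spans begin.
S100a7a: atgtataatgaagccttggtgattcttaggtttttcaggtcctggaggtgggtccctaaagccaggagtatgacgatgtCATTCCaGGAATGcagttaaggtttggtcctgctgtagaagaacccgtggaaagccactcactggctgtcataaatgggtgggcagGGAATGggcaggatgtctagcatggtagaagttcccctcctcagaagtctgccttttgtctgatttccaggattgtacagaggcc
S100a11: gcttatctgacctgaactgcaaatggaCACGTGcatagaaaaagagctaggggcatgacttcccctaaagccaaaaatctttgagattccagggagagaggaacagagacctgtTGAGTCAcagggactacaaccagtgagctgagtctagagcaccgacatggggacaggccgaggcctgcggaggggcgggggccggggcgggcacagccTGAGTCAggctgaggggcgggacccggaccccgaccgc
S100a6: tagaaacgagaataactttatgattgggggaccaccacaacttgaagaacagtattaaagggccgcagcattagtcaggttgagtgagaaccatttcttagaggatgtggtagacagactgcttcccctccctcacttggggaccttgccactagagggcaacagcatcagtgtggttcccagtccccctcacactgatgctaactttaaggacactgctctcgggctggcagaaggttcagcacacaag
The S100a7a window held GGAATG 3 times, once on the minus strand 171 bases and on the plus strand 164 and 85 bases before this internal start. The S100a11 window held TGANTCA at 136 and 38 bases before the start, and ACGTG on both strands in overlapping matches at 223 and 222 bases. The S100a6 window held none of the 4, and neither did those of S100a1, S100a4 and S100b. S100a13 had a GCGTG match and 1 of the S100a16 windows a TGANTCA match. These matches describe letters in a window and were not tested as binding sites.

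On chromosome 3 the S100 genes lie at both ends of a span from 90511034 to 93564645 that also holds genes of the skin barrier. In order along the chromosome, S100a1, S100a13 and S100a16 had ratios above 1, the next measured members S100a4, S100a6 and S100a7a had ratios below 1, and at the far end S100a11 lay above 1 and S100a10 below. Of 69 other genes of the span with a row, 52 had 0 counts in both libraries and 3 lay above the CPM minimum. The highest of these was the RefSeq pseudogene Gm4202, with 422 counts under force against 572 in control, a ratio of 0.762 (0.670 to 0.865). Lce1g, a gene of the skin's late cornified envelope, had 34 counts under force against 58 in control, a ratio of 0.608 (0.384 to 0.939). The pseudogene Gm9774 had 19 under force against 37 in control, a ratio of 0.536 (0.288 to 0.945). The intervals of all 3 lay below 1, as did those of 28.6% of all genes above the minimum, and 3 genes are too few to describe the span. Counts of pseudogenes can hold reads of their parent genes.

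**Figure D4:**
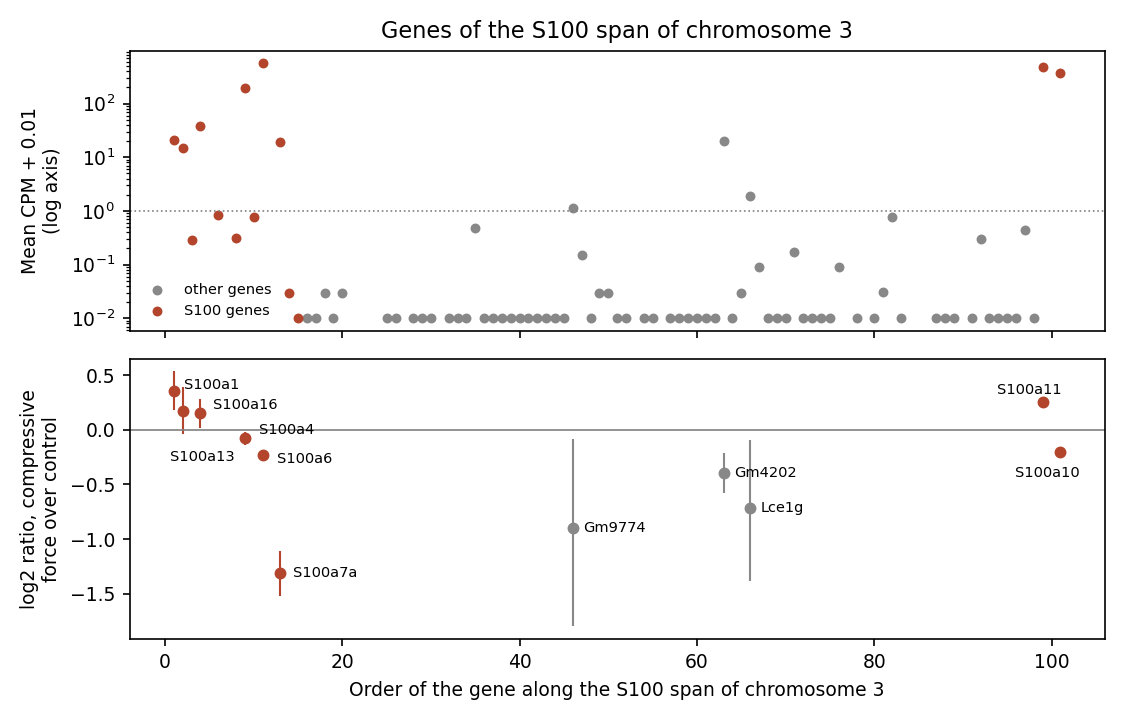
Genes of the S100 span of chromosome 3 in their order along the chromosome, with mean CPM + 0.01 (log axis, dotted line at 1 CPM) above and the log2 ratio of compressive force over control with 95% counting intervals below for genes above the CPM minimum. Red S100 genes stand at both ends, with S100a7a lowest at -1.31, and the grey genes between them are mostly at 0 counts.

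The other 8 S100 rows of the table were all below 1 CPM in both libraries. S100a9 (with S100a8 the calprotectin of neutrophils), S100g (the calcium-binding protein of intestinal absorption) and S100z had 0 counts in both, and S100a8 had 0 under force and 1 in control. S100a3, known from the hair cuticle, had 23 counts under force and 18 in control, and S100a5 had 18 under force and 20 in control. S100a14, an epithelial member, had 4 counts under force and 10 in control, and S100a2 had 6 under force and 9 in control. Every one of these intervals held 1, and a difference was not detectable at this depth. All 17 S100 rows together took 0.166% of counts under force (Wilson 95% interval 0.165 to 0.168) and 0.174% in control (0.172 to 0.175). These intervals cover counting error only. The sum is weighted to the genes with the most counts, S100a6, S100a10 and S100a11, which did not share a direction. Of the 8 S100 genes above the minimum, 4 had ratios above 1 and 4 below 1, so the sum does not describe each gene. The 7 fused-type S100 genes, large skin barrier proteins with an S100 domain, had no member above the minimum, and 6 of them were at 0 in both libraries.

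Known partners of S100 proteins, from a written list of 26 genes, had 18 above the CPM minimum, of which 0 were called higher or lower, beside 3.06% and 0.929% of all genes. Their intervals lay above 1 for 6 and below 1 for 4, beside 26.3% and 28.6% of all genes, and the median log2 ratio was 0.05. Fgf1, the growth factor released with S100a13, had the highest ratio, 1.52, with 230 counts under force against 156 in control. Bsg, also called basigin and a receptor of S100a9, followed at 1.37 (9880 counts under force, 7444 in control). Ager had 59 counts under force and 47 in control, and its interval held 1. Tlr4 had the lowest ratio, 0.723, with 901 counts under force against 1287 in control. Ahnak, a giant scaffold protein bound by the S100a10 and annexin A2 complex, had a ratio of 0.795 (83123 counts under force, 107854 in control), and the calcyclin-binding protein gene Cacybp one of 0.812 (2413 counts under force, 3068 in control). The S100a6 to Cacybp count ratio was 5.18 under force and 4.93 in control, with a quotient interval of 0.992 to 1.11. Myh9, the myosin bound by S100a4, stood at 1.06 (52844 counts under force, 51629 in control).

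Annexins, which bind membranes in the presence of calcium and several of which pair with S100 proteins, had 10 of 12 members above the minimum, 0 called, and a median log2 ratio of 0.06. Over all genes 3.06% were called higher and 0.929% lower. Intervals lay above 1 for 4 and below 1 for 3 of the 10 annexins, against 26.3% and 28.6% of all genes. Anxa2, the partner of S100a10, had 481 counts under force and 446 in control, a ratio of 1.11 with an interval that held 1. S100a10 counts per Anxa2 count were 17.4 under force and 22.2 in control, a quotient of 0.782 (0.686 to 0.893). Whether the Anxa2 row holds all reads of that gene was not tested. Anxa1, which binds S100a11, had 15096 counts under force and 16003 in control, a ratio of 0.973. S100a11 per count of Anxa1 was 0.844 under force and 0.689 in control, a quotient of 1.23 (1.18 to 1.27). Anxa3 had the lowest ratio of the family, 0.728 (6130 counts under force, 8694 in control), then Anxa9 at 0.806 and Anxa5 at 0.939, while Anxa7 at 1.22, Anxa4 at 1.21 and Anxa11 at 1.17 were the highest.

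Other EF-hand proteins, from calmodulins to reticulocalbins, had 29 of 40 members above the minimum, 0 called, and a median log2 ratio of 0.01. Calls of all genes were 3.06% higher and 0.929% lower. Intervals lay above 1 for 10 and below 1 for 8 of the 29, near the 26.3% and 28.6% of all genes. Rcn3, a reticulocalbin of the secretory pathway, had the highest ratio, 1.33 (3220 counts under force, 2492 in control), followed by Hpcal1 at 1.196 and Micu2, a regulator of mitochondrial calcium uptake, at 1.19. Cib1 at 0.803, the calcium store sensor Stim2 at 0.821 and Ncs1 at 0.826 were the lowest.

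**Figure D5:**
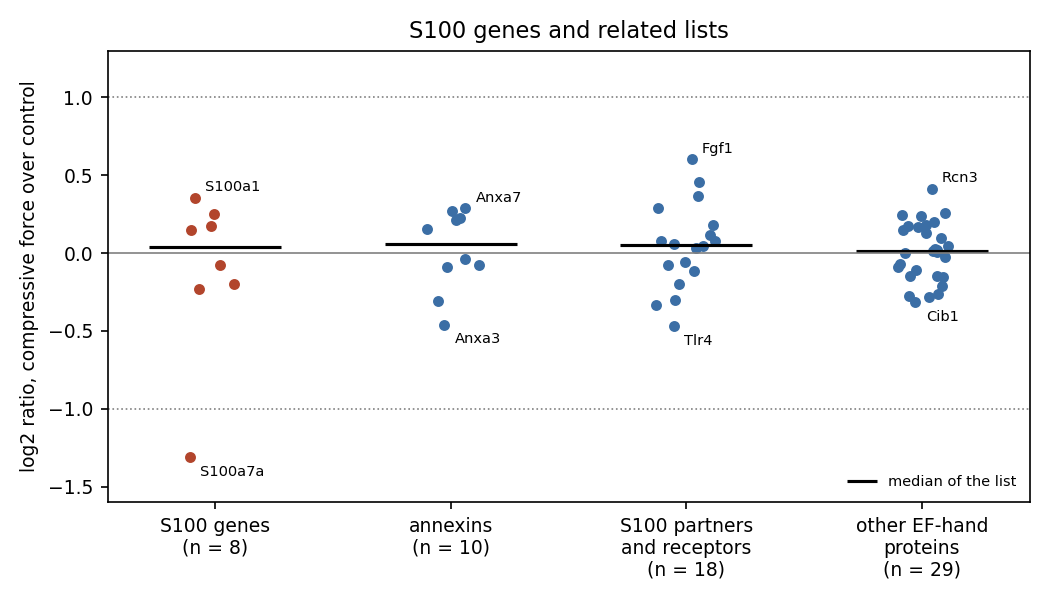
The log2 ratio of compressive force over control for members above the CPM minimum of 4 lists (points, 1 per gene; black bars are medians; dotted lines mark 2-fold). S100a7a at -1.31 lies past the dotted line, and all annexins, partners and other EF-hand genes lie between -0.47 and 0.60.

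Counting intervals leave out the spread between cultures. If they are widened for an assumed coefficient of variation of 0.1 between cultures, the interval of S100a7a, 0.295 to 0.549, still excludes 1, and those of the other 7 S100 genes all hold it. The widened interval of S100a7a reaches past the limit of 0.5 that a call uses. Since the S100 genes were chosen with their ratios known, this is a description and no further check of S100a7a.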

How the data were processed

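RNA of 2 OCCM-30 samples was sequenced, 1 under compressive force and 1 control, grouped by the treatment given in the labels. The treatment protocol text names compressive force for both samples. The deposited table holds whole-number read counts per gene with no normalization. Per the submitters' processing notes, HISAT2 was used with build GRCm38. Which counting tool, annotation and strand setting were used, and how multiply aligned reads were counted, was not given in the sources used here. Counts of overlapping genes and of genes with near-identical copies are therefore uncertain.

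From these counts, TMM library sizes (edgeR 4.0.16 in R 4.3.3) gave CPM values, and ratios of the compressed over the control library were taken with 0.5 as prior count. Intervals are exact 95% conditional binomial (Clopper-Pearson) intervals. Those of quotients of within-library ratios, a measure added after the values were seen, come from the normal approximation on the log scale. All of these intervals cover counting error only, since 1 library per group gives no spread between cultures. Reads are not independent molecules, so the counting error itself may be larger than they show. A count of 0 allows up to 3 counts. With 1 library per group, the quasi-likelihood test of edgeR could not be fitted for want of residual degrees of freedom, and no p-value was computed. The calling rule was tested on simulated counts that held counting error only. That simulation cannot show how often a call arises from the spread between cultures.

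The members, lists and named genes were chosen with earlier results of these data known. Named were all S100 rows, the 3 highest and 3 lowest of each list, 8 fixed partners and the 5 genes nearest to S100a7a. Exon lengths were not used here, so levels are not compared between genes. The alternatives were 4 scalings (DESeq2 1.42.0 among them), the CPM minimum, the prior count, the confidence level and widened intervals. Names and positions come from a RefSeq table of GRCm38.p6. The summed level of 1 marker list is not reported here.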

Additional observations from a re-analysis of the deposited data

How the results depend on the processing

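No paired analysis was possible because each group has 1 library. No log2 ratio of the 8 S100 genes above the CPM minimum changed sign under the 4 other scalings or a prior count of 5. With intervals widened for a coefficient of variation of 0.1 or 0.2 between cultures, S100 genes with intervals above 1 numbered 0 in both cases, not 3, and those with intervals below 1 numbered 1 in both cases, S100a7a, not 4. The call of S100a7a as lower and the absence of S100 genes called higher held under all 9 alternatives of scaling, CPM minimum, interval width and confidence level. Of these, only the scalings change a ratio. The CPM minima could not affect S100a7a, at 11.3 CPM under force and 28.1 CPM in control. The highest ratio above the minimum, 1.28 for S100a1, was far from the 2 that a call needs. With no CPM minimum, 2 other EF-hand genes were called higher, Calml4 (23 counts under force, 9 in control) and Efhd1 (12 under force, 3 in control), named after their values were seen. With the loess fit the log2 ratio of S100a4 was -0.05 and its interval held 1, which left 3 S100 genes with intervals below 1. With 99% intervals, S100a16 and S100a4 held 1, which left 2 S100 genes above 1 and 3 below. Depth limits S100b and the 8 further S100 rows, which lie below 1 CPM.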
